A study of Mus musculus with 12 samples.

Results

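Epithelial cells hold on to the basement membrane through integrins, which are pairs of an alpha and a beta chain in the plasma membrane. Basal cells of the airway do so mainly at hemidesmosomes, where the integrin made of Itga6 and Itgb4 binds laminin outside the cell and is tied to keratin filaments inside it by plectin, with the transmembrane collagen Col17a1 and the tetraspanin Cd151 as further parts. The laminin of this junction holds the chains encoded by Lama3 and Lamb3. These genes were followed in mouse airway organoids after ablation of neighboring cells with a fs laser. The rule took all integrin alpha and beta chain genes and laminin chain genes of the count table by name, together with Col17a1, Plec, Cd151, Col7a1, Nid1 and Nid2. This gave 43 of the 55401 genes listed. Of these, 29 reached 10 normalized counts in 6 or more libraries and were tested among 13792 such genes, and the other 14 are described by level only.

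The organoids were grown from airway epithelial cells of adult C57BL/6J mouse lungs, embedded in Cultrex, a basement membrane extract that itself supplies laminin and nidogen protein. In both groups the cells carried a lentiviral reporter, a fusion of Histone2A and mCherry driven by the p63 promoter. The ablation group (n = 6 dishes) had 10 neighboring cells ablated in each of 45 organoids per dish, and the control group (n = 6) had none. Both were kept in unsupplemented FluoroBrite DMEM and harvested 4.5 h after the laser treatment. Ablation and control dishes carry the shared numbers 1, 3, 4, 5, 6 and 7, and the dishes of a number had the same passage and culture day. They are called pairs here. By their library numbers, pairs 1, 3 and 5 form library set 1 and pairs 4, 6 and 7 form library set 2. Library set 1 was grown for 14 to 15 passages after P2 and library set 2 for 15 to 16, so passage moved with library set except for pairs 4 and 5, which shared a passage, and its part in the differences between library sets was not tested. The labels do not say that the pairs came from different animals, so p-values measure the spread between dishes, which may be technical.

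All values are normalized counts, the reads on a gene divided by a size factor of its library. They summed to between 27298000 and 28504400 per library. Basal cell markers were abundant, with Krt5 at 229016 to 340094 and Krt14 at 210725 to 274982 normalized counts in every dish. Markers of multiciliated cells, leukocytes and endothelial cells summed to at most 69.5 normalized counts in any dish, and the fibroblast markers to at most 48.3. Of the platelet markers, Gp9 was at 0 in every dish and Pf4 at most at 2.97, while Ppbp had 271 to 3177. Of the secretory cell markers, Cyp2f2 had 26191 to 78597 and Scgb1a1 at most 9.65 normalized counts. The basal cell attachment markers Itgb4, Itga6 and Col17a1 were all present in every dish. In these bulk samples, fewer cells of a type and less RNA per cell cannot be told apart.

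Among the integrin alpha chains, Itga6 and Itga3, both parts of laminin receptors, were highest. Per kb of exon, Itga6 had 1840 ± 200.2 normalized counts (mean ± SD, n = 12 dishes), and Itga3, the alpha chain of the other main epithelial laminin receptor, had 992 ± 155. Itgav, which pairs with several beta chains to bind vitronectin and latent TGF-beta, followed with 328 ± 24.4, and the collagen receptor chain Itga2 with 178 ± 45.8. The fibronectin receptor chain Itga5 had 46.6 ± 8.03 and Itgam, a chain of leukocyte integrins, 23.8 ± 8.68 per kb. The order of these 6 chains was the same in 12 of 12 dishes, and the ranges of neighbours did not overlap. Below them, Itga9, Itga10, Itga1 and Itga2b had means from 2.77 to 4.67 per kb, with overlapping ranges, so these 4 chains could not be ordered. Itgam shares 3450 of its 5024 exon bases with Gm49368 on the same strand (mean 0.162 normalized counts). Itga10 shares 1739 of 5186 with Gm42957 (mean 0.585). How reads in such stretches were counted is not given. The levels of Itgam and Itga10 may be too low, so the place of Itgam below Itga5 is uncertain. Itga6 made up 53.8% ± 2.74 (SD, n = 12) of all alpha chain counts per kb and Itga3 28.9% ± 3.10.

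The beta chains had a similarly steep order. Itgb1, the common partner of most alpha chains, was the highest with 5169 ± 329 normalized counts per kb, followed by Itgb4 with 2793 ± 272, which pairs with Itga6 alone, and by the vitronectin receptor chain Itgb5 with 877 ± 76.7. Itgb7 (167 ± 38.1) and Itgb6 (153 ± 28.1) were not separated, with Itgb7 higher in 8 of 12 dishes. Itgb8 had 15.7 ± 4.48 and Itgb2, the common chain of leukocyte integrins, 7.45 ± 1.79, with Itgb8 higher in 11 of 12 dishes. Itgb7 had 266 to 594 normalized counts per dish, while the alpha chains it is known to pair with were near 0. Itga4 had at most 2.97 and Itgae at most 4.87 normalized counts in any dish.

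Lamb3 and Lama3 had the highest means of the laminin beta and alpha chains. Lamb3 had 1935 ± 223 normalized counts per kb against 365 ± 34.8 for Lamb2 and 96.8 ± 14.8 for Lamb1, and its share of the beta chains was 80.6% ± 2.24 (SD, n = 12). The order of these 3 held in 12 of 12 dishes. Lamc1, the gamma chain of many laminins, had 324 ± 24.6 per kb. Lama3 (696 ± 194) and Lama5 (596 ± 55.3), the alpha chain of the laminins widespread in adult epithelia, were not separated. Lama3 was higher in 8 of 12 dishes. Lama1, which is best known from embryonic basement membranes, followed with 169 ± 26.8 per kb in every dish below both.

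Of the hemidesmosome and anchoring genes, Col17a1 had 3839 ± 389 normalized counts per kb and was second only to Itgb1 among the 43 genes. Cd151, which binds laminin receptors sideways in the membrane, had 1646 ± 91.3, plectin (Plec) had 1190 ± 130, and Col7a1, the collagen of the anchoring fibrils, had 579 ± 104. These 4 ranges did not overlap. Plec shares 205 exon bases with Parp10 on the same strand (mean 333 normalized counts) and Cd151 shares 193 with Gm10575 on the opposite strand (mean 35.3), so reads in these stretches may be assigned to either gene. In the plot of levels by dish, the 2 groups overlap for each gene shown.

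**Figure D1:**
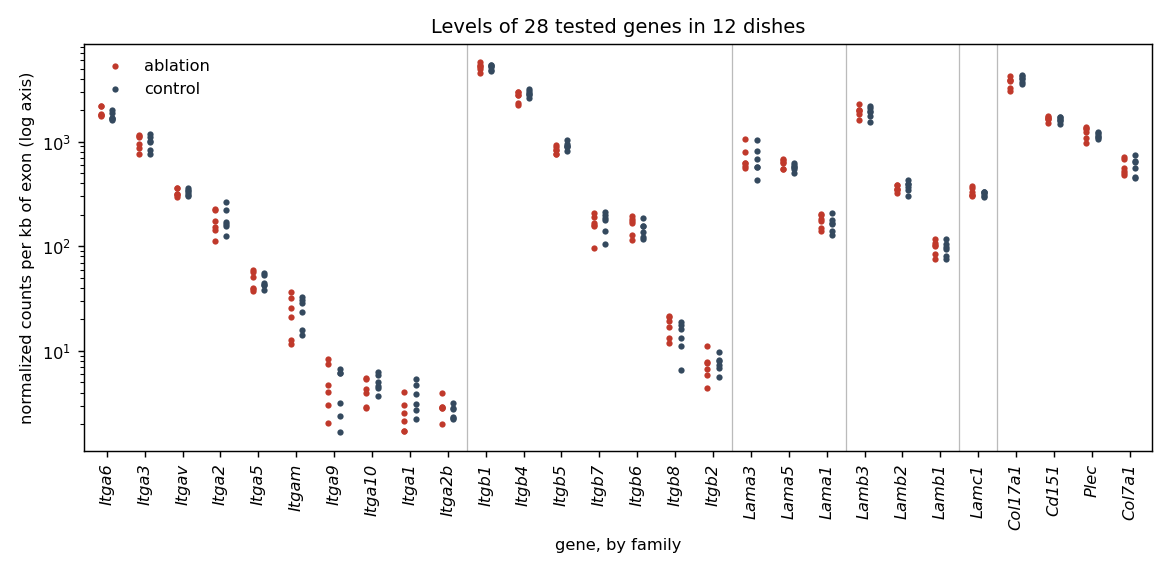
Normalized counts per kb of exon (log axis) of 28 tested genes, by family and in falling order of the mean, with 1 point per dish in the ablation and the control group (n = 6 each). Itgb1 and Col17a1 lie at the top with means of 5169 and 3839 per kb, and Itga2b at the bottom with 2.77.

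The 14 genes under the minimum had fewer than 10 normalized counts in each of the 12 libraries. They were the alpha chains Itga4, Itga7, Itga8, Itga11, Itgad, Itgae, Itgal and Itgax, the beta chain Itgb3, the laminin chains Lama2, Lama4 and Lamc3, and the nidogens Nid1 and Nid2, which link laminin to collagen IV. Their highest value in any dish was 6.93, for Lama2 in ablation 4. Itgad was at 0 in all 12 libraries, which allows up to 3 counts per library. Nid1 reached at most 1.98 and Nid2 at most 2.92 normalized counts, although Nid2 shares 437 exon bases with the expressed gene Rtraf on the opposite strand.

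To find whether ablation changed these genes within 4.5 h, limma was run on log2 of the normalized counts with 1 added, and the library set entered as second factor. At an adjusted p under 0.05, 0 of the 29 genes passed, as did 0% of all genes tested. The authors, using DESeq2 with condition and batch as factors, reported genes past this threshold, Trp63 among them. The 0% holds for this fit and for the edgeR fit below, both with library sets. Why it differs from the authors' result was not tested. At an unadjusted p under 0.05, 1 gene (Itga1) passed in the limma model with library sets, a share of 3.45% against 7.85% of all genes. The paired model replaces the library set with the pair. It called 0 of the 29 at an adjusted p under 0.05, against 1.09% of all genes (93 higher and 57 lower). With edgeR on the reads recovered for 9 libraries, 0 of the 29 passed at an adjusted p, as did 0% of all genes, and 1 passed at an unadjusted p under 0.05, a share of 3.45% against 5.85% of all genes. At an unadjusted p under 0.05 the paired model gave 7 of the 29 genes, 24.1% against 17.6% of all genes. These were Itga6, Itgb8 and Lama5, with positive mean changes, and Itga1, Itgb4, Itgb5 and Col17a1, with negative ones. Over the 29 genes the median log2 fold change was 0.02, against -0.0036 over all genes tested. Of the 29 values, 17 were above 0 and 12 below. Of all 13792, 6689 were above 0 and 7103 below.

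Itga6 and Itgb4, the chains of the hemidesmosome integrin, lay on opposite sides of their controls in every pair. Itga6 (ENSMUSG00000027111.16, GRCm38.p6 chromosome 2 from 71745616 to 71858416, plus strand) ranged from 16101 to 20248 normalized counts after ablation (median 16520) and from 14717 to 18214 in the control (median 15470). The ablation dish was higher in 6 of 6 pairs, while the groups overlapped because pairs 5 and 7 were high in both. Its mean was 16008 ± 1401 in the control (SD, n = 6) and 17627 ± 1958 in the ablation dishes. The log2 fold change was 0.14, with an SE of 0.077 when fitted with library sets and of 0.036 when fitted with pairs. The limma adjusted p was 0.698 with library sets and 0.0852 with pairs. Where 1 SE is given with a log2 fold change below, it is that of the library set model. With no count minimum the paired model gave Itga6 an adjusted p of 0.0250, and this was the only one of the 29 genes past the threshold there, where 1.25% of 28534 genes were called. Over the paired alternatives its adjusted p ranged from 0.0250 to 0.475.

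Itgb4 (ENSMUSG00000020758.15, chromosome 11 from 115974709 to 116008412, plus strand) ranged from 15636 to 20883 normalized counts after ablation (median 19548) and from 18386 to 22159 in the control (median 20238). The ablation dish was lower in 6 of 6 pairs. The log2 ratio of a pair lay between -0.33 in pair 4 and -0.02 in pair 3, so some pairs hardly differed. The log2 fold change was -0.12 (SE 0.078 with library sets and 0.044 with pairs), with limma adjusted p-values of 0.739 and 0.191 in the 2 models. Itgb1, the other possible partner of Itga6, stood at 21035 ± 1194 normalized counts in the control (SD, n = 6) and at 21153 ± 1593 in the ablation dishes. It was higher in 3 pairs and lower in 3. The shares of all tested genes that were higher in all 6 pairs and lower in all 6 pairs were 5.17% and 4.63%. Among the 29 genes, 2 were higher in all 6 pairs (Itga6 and Itgb8, 6.90%) and 3 were lower (Itga1, Itgb4 and Itgb5, 10.3%), so these shares rest on very few genes.

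The ratio of Itga6 to Itgb4 within a dish does not depend on the scaling of the library. It ranged from 0.828 to 1.06 after ablation (median 0.966) and from 0.737 to 0.852 in the control (median 0.783). It was higher after ablation in 6 of 6 pairs, and 4 of the 6 ablation dishes lay above every control dish, while ablation 3 and ablation 6 lay below control 7. The mean difference was 0.25 on the log2 scale (SD 0.113, n = 6 pairs), which is a ratio 19.2% higher. A two-sided exact sign-flip test over the pairs gave p = 0.0312, the smallest that 6 pairs allow, and 0.0938 after adjustment over the 6 partner ratios compared. Since Itga6 was higher and Itgb4 lower in every pair, the ratio had to be higher in every pair. This p therefore restates those directions and adds no separate evidence. The difference was 0.26 in library set 1 alone and 0.25 in library set 2 alone. Without any single pair it stayed between 0.22 and 0.28.

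The ratio of Itga6 to Itgb1 was also higher after ablation in 6 of 6 pairs. It ranged from 0.756 to 0.960 after ablation (median 0.827) and from 0.715 to 0.819 in the control (median 0.756), and 3 ablation dishes lay above every control dish. The mean log2 difference was 0.13 (SD 0.101, exact sign-flip p = 0.0312, adjusted p = 0.0938). Both ratios share Itga6, so they are not separate observations. Trp63, the basal cell transcription factor whose promoter drives the reporter, rose in the paired model (log2 fold change 0.39, limma adjusted p = 0.00825, all 6 pairs higher), and had an adjusted p of 0.187 with library sets. The other basal cell markers Krt5, Krt14 and Ngfr had log2 fold changes of 0.02, 0.05 and -0.11, with limma paired adjusted p-values of 0.851, 0.539 and 0.609, and Ngfr was higher in 2 of 6 pairs. Whether the level of Trp63 played a part in the Itga6 values was not tested.

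**Figure D2:**
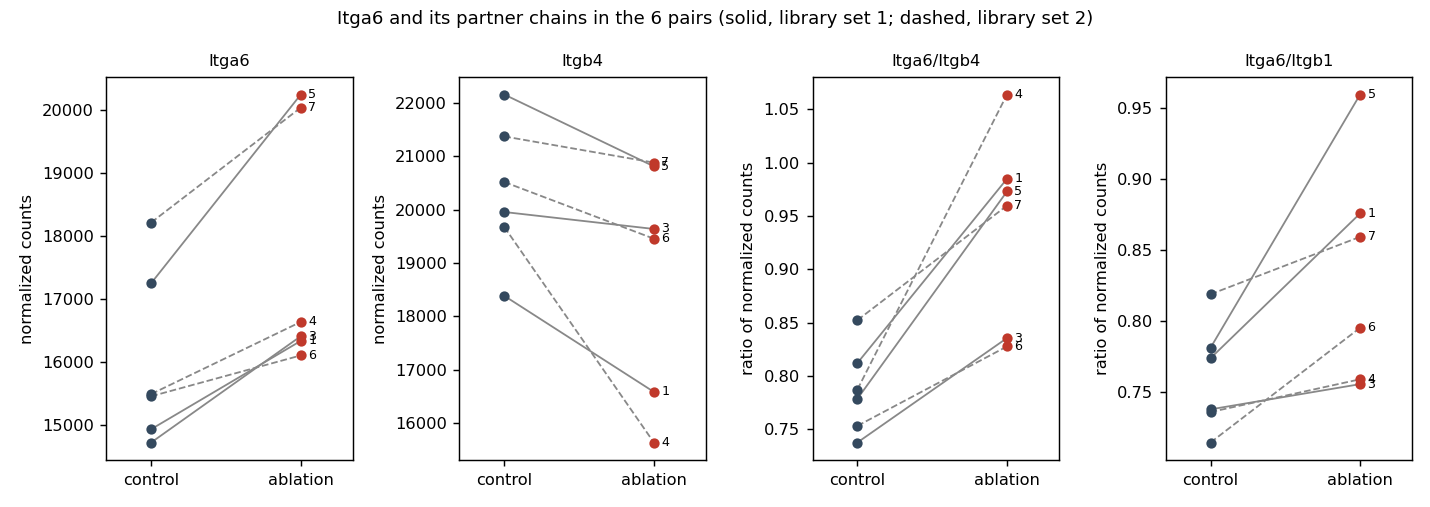
Normalized counts of Itga6 and Itgb4, and the ratios of Itga6 to Itgb4 and to Itgb1, in control and ablation dishes. Lines join the dishes of a pair and numbers name the pair. Every line rises for Itga6 and for both ratios and falls for Itgb4, with the steepest fall of Itgb4 in pair 4. The vertical axes do not start at 0.

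Of the other hemidesmosome genes, none passed a threshold at an adjusted p. Col17a1 ranged from 18502 to 25710 normalized counts after ablation (median 23087) and from 21438 to 26172 in the control (median 24008), and was lower in 5 of 6 pairs. Its log2 fold change was -0.11 (SE 0.081), with limma adjusted p-values of 0.777 and 0.213 in the 2 models. The ratio of Col17a1 to Itgb4 differed by 0.01 on the log2 scale (SD 0.108, exact sign-flip p = 0.844, adjusted p = 1), higher in 4 pairs and lower in 2. Plec ranged from 17715 to 25061 after ablation (median 23412) and from 19040 to 22639 in the control (median 20554). The ablation dish of Plec was higher in 4 of 6 pairs, with limma adjusted p-values of 0.811 and 0.447 in the 2 models. Cd151 ranged from 4132 to 4852 (median 4563) and from 4022 to 4752 (median 4455), with 3 pairs in each direction. It varied least of the 29 genes, by 1.21-fold between its lowest and highest dish. Of the hemidesmosome and keratin anchor genes outside the rule, Dst, Lad1, Krt5 and Krt14 were tested. Of these, 0 of 4 passed in either model, where 0% (library sets) and 1.09% (pairs) of all genes passed. Lad1, which encodes the anchoring filament protein ladinin, came nearest (log2 fold change -0.18, paired adjusted p = 0.0620).

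Lama3 and Lamb3 differed far more between pairs than between groups. Lama3 (chromosome 18 from 12333819 to 12583013, plus strand) ranged from 5982 to 11319 normalized counts after ablation (median 6704) and from 4597 to 11193 in the control (median 6744). Across the 12 dishes it varied 2.46-fold. Lamb3 (chromosome 1 from 193207699 to 193343878, plus strand) varied 1.49-fold, from 10553 to 15222 after ablation (median 13146) and from 10227 to 14584 in the control (median 12884). Pair 5 was the highest and pair 7 the next in both groups, for Lama3 and Lamb3 alike.

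Neither gene passed a threshold after ablation. Their log2 fold changes were 0.06 for Lama3 and 0.03 for Lamb3, with limma adjusted p-values of 0.962 and 0.961 with library sets and 0.712 and 0.767 with pairs. The ratio of Lama3 to Lamb3 differed by 0.04 on the log2 scale (exact sign-flip p = 1 before and after adjustment). It was lower in 5 of 6 pairs, and the positive mean came from pair 3 alone, since control 3 was the lowest dish for Lama3. Without pair 3 the mean difference was -0.03.

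**Figure D3:**
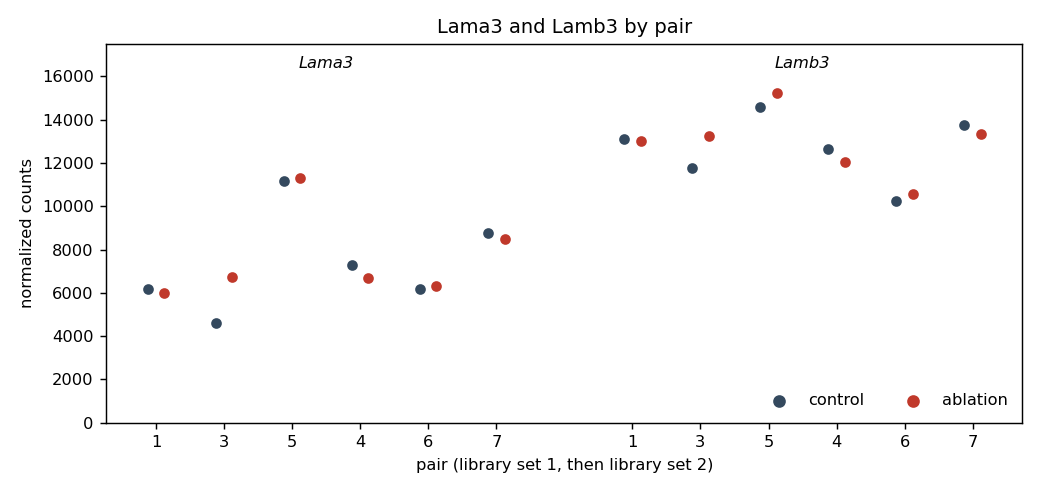
Normalized counts of Lama3 and Lamb3 by pair, with 1 point for the control and 1 for the ablation dish. The 2 dishes of a pair lie close together for most pairs, and pair 5 is the highest for both genes, with Lama3 at 11193 in the control and 11319 after ablation.

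Lama5 was the laminin chain with the lowest unadjusted p-value after ablation. It ranged from 6184 to 7726 normalized counts after ablation (median 7241) and from 5776 to 7135 in the control (median 6547), and was higher in 5 of 6 pairs. Its log2 fold change was 0.12 (SE 0.069), with limma adjusted p-values of 0.710 and 0.231, and it was 0.22 in library set 1 alone and 0.014 in library set 2 alone. The log2 fold changes of Lama1, Lamb1, Lamb2 and Lamc1 lay between -0.06 and 0.10, with adjusted p-values of at least 0.825 in the library set model and at least 0.560 in the paired one. Lama1 was higher after ablation in the 3 pairs of library set 1 and lower in the 3 of library set 2, where the difference in pair 4 was only -0.0025 on the log2 scale.

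Col7a1 showed the same split between library sets. It ranged from 4895 to 7357 normalized counts after ablation (median 5557) and from 4626 to 7714 in the control (median 6124), with a mean log2 fold change of -0.01. In the pairs of library set 1 its log2 ratio was 0.14 in pair 1, 0.13 in pair 3 and 0.60 in pair 5. In those of library set 2 it was -0.23 in pair 4, -0.27 in pair 6 and -0.43 in pair 7. When the pair differences of the library sets were compared with limma, a test chosen after the values were seen, Col7a1 differed by -0.60 (SE 0.119, adjusted p = 0.252) and Lama1 by -0.39 (SE 0.107, adjusted p = 0.413). Of the 29 genes, 0 passed at an adjusted p under 0.05 in this comparison, against 0.00725% of all genes, and 4 passed at an unadjusted p under 0.05 (Col7a1, Lama1, Lama5 and Lamb2, 13.8% against 7.88%). In the paired model of library set 2 alone, Col7a1 had an adjusted p of 0.0414, where 0.79% of all genes were called.

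Of the integrin chains, Itga1, Itgb8 and Itgb5 had the lowest unadjusted p-values in the library set model. Itga1, the alpha chain of a collagen and laminin receptor, ranged from 31.7 to 75.9 normalized counts after ablation (median 43.5) and from 41.2 to 99.8 in the control (median 64.9). It was lower in 6 of 6 pairs, although the groups overlapped. Its log2 fold change of -0.53 (SE 0.203) was the largest of the 29 in size, with limma adjusted p-values of 0.604 and 0.104. Itgb8, which with Itgav binds latent TGF-beta, ranged from 132 to 237 after ablation (median 201) and from 72.7 to 208 in the control (median 162). All 6 pairs were higher after ablation. The log2 fold change was 0.36 (SE 0.173) and the limma adjusted p-values were 0.642 and 0.115. The pair differences of Itgb8 were uneven, from 0.07 in pair 6 to 0.85 in pair 3.

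Itgb5 ranged from 2718 to 3337 normalized counts after ablation (median 2969) and from 2916 to 3659 in the control (median 3222). It was lower in 6 of 6 pairs, by 0.04 to 0.24 on the log2 scale in size. Its log2 fold change was -0.13 (SE 0.063), with limma adjusted p-values of 0.648 and 0.113. Itgb6, the third partner of Itgav considered here, was higher in 5 of 6 pairs (log2 fold change 0.12, limma adjusted p-values of 0.857 and 0.422). Itgav itself had a log2 fold change of -0.02. The ratio of Itgav to Itgb6 was lower after ablation in 5 of 6 pairs, by 0.14 on average on the log2 scale (SD 0.260, exact sign-flip p = 0.25, adjusted p = 0.5), with pair 1 in the other direction.

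The laminin receptor chain Itga3 differed little between the dishes of a pair. Its dishes ranged from 4365 to 6779 normalized counts, yet its pair differences lay between -0.06 and 0.11 on the log2 scale, and its log2 fold change was 0.02. The remaining alpha chains Itga2, Itga5, Itga9, Itga10, Itga2b and Itgam and the beta chains Itgb2 and Itgb7 had log2 fold changes between -0.27 and 0.19, with limma adjusted p-values of at least 0.780 in the library set model and at least 0.525 in the paired one.

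**Figure D4:**
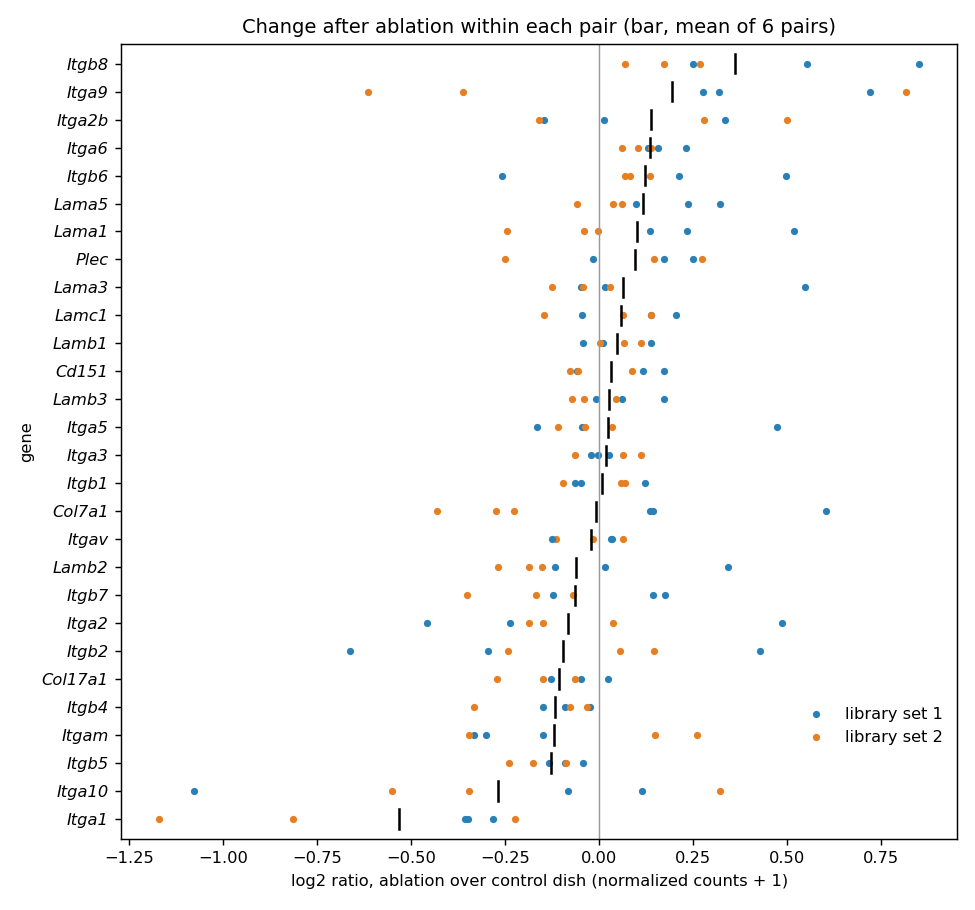
Log2 ratio of the ablation to the control dish in each of the 6 pairs for 28 tested genes, colored by library set, with a bar at the mean, in order of the mean. All 6 points lie above 0 for Itgb8 and Itga6 and below 0 for Itgb4, Itgb5 and Itga1, while Col7a1 splits by library set.

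The start regions of 4 of the genes whose ablation dishes lay on one side of the control in 5 or 6 pairs are given for reference. Lama5, Itgb6 and Lamb1 were also higher in 5 of 6 pairs, and their windows are not printed. The RefSeq windows (GRCm38.p6) run from 250 bases before to 50 after the transcription start, and 27 of the 43 genes had one. Itga6 and Itgb4 were not among them. Capitals mark matches on either strand to the core of the GC box, which was spelled as GGGCGG, and to that of the TATA box, for which the letters used in the search were TATAAA. The third motif searched on both strands was the AP-1 site, and the letters taken for it were TGANTCA. Marked matches do not overlap.
Itgb5, lower in 6 of 6 pairs, chr16:33829415-33829714, plus strand: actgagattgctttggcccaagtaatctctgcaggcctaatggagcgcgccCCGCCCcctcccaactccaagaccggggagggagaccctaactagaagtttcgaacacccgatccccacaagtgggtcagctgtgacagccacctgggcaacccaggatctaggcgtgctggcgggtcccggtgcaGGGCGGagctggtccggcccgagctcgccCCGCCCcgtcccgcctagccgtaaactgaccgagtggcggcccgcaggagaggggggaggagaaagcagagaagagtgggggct
Itga1, lower in 6 of 6 pairs, chr13:115101915-115102214, minus strand: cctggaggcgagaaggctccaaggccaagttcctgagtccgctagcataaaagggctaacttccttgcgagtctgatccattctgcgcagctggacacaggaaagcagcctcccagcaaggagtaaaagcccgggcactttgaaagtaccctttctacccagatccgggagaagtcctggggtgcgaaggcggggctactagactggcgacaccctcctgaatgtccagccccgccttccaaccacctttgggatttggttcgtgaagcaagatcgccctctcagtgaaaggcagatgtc
Itgb8, higher in 6 of 6 pairs, chr12:119238227-119238526, minus strand: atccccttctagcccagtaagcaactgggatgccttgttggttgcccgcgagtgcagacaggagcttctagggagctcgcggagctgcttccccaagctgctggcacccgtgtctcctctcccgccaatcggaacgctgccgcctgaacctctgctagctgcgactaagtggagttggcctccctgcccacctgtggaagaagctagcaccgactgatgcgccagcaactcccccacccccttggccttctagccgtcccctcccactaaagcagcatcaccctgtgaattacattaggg
Col17a1, lower in 5 of 6 pairs, chr19:47691993-47692292, minus strand: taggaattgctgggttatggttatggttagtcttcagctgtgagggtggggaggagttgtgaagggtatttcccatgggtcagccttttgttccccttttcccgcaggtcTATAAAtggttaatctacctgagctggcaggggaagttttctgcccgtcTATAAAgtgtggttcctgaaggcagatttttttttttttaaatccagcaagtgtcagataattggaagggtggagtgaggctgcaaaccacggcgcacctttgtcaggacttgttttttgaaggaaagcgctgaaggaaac
The window of Itgb5 held 3 matches to the GC box core and that of Col17a1 2 matches to the TATA box, while the windows of Itga1 and Itgb8 held none of the 3 motifs. Of the windows not printed, that of Lama5 held 4 matches to the GC box core and that of Lamb1 2. Those of Itgb6 held none of the 3 motifs. Over all 32851 windows of the table, 35.7% held the GC box core, 13.6% the TATA box and 7.81% the AP-1 site. The matches are a description of these letters only.

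The library sets were compared on the means of the pairs, 3 against 3. At an adjusted p under 0.05, 0 of the 29 genes passed, as did 0% of all genes. At an unadjusted p under 0.05, 5 of the 29 passed, 17.2% against 9.38% of all genes. Itgam had the lowest p-value. It ranged from 57.9 to 118 normalized counts in library set 1 (median 75.9, n = 6 dishes) and from 130 to 185 in library set 2 (median 157), without overlap, a 1.93-fold higher level in library set 2 (limma adjusted p = 0.465). The leukocyte markers Ptprc, with 5.92 to 22.4, and Lyz2, with 2.96 to 54.0 normalized counts per dish, did not separate the library sets.

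Lamb1 was lower in library set 2, with 755 to 1005 normalized counts against 970 to 1176 in library set 1, a log2 difference of -0.35 (limma adjusted p = 0.471). Itgb8 was higher by 0.63, Itga1 by 0.59 and Itgav by 0.17 on the log2 scale, with adjusted p-values of 0.471, 0.520 and 0.497. For Itga1 the ranges overlapped. Ablation 4 had the lowest value of all dishes, and ablation 6 of library set 2 also lay below control 3 of library set 1. For Itga6, Itgb4 and Lama3 the library sets differed by at most 0.031 on the log2 scale in either direction.

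**Figure D5:**
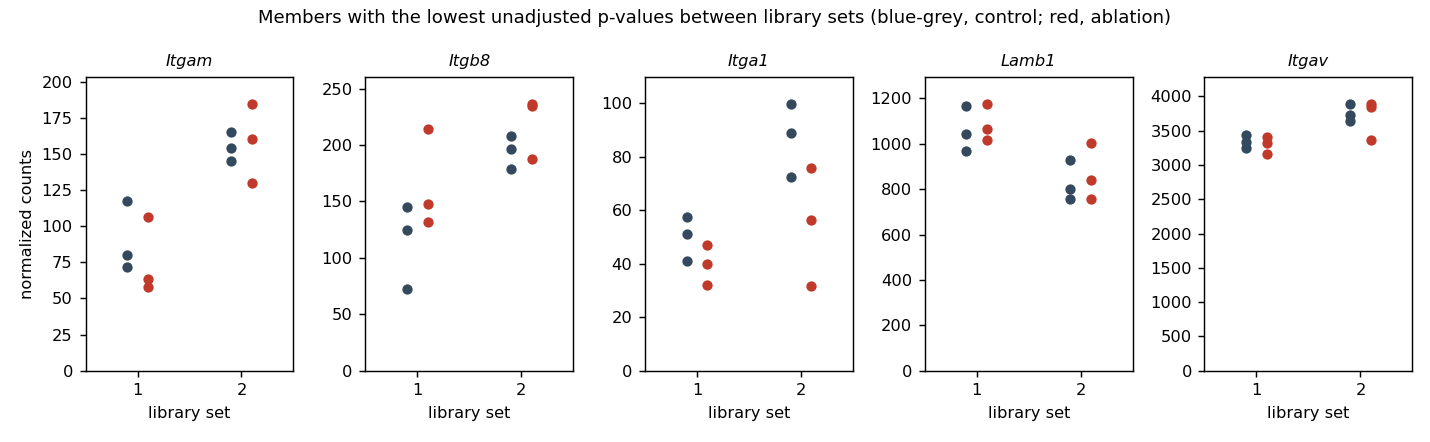
Normalized counts of Itgam, Itgb8, Itga1, Lamb1 and Itgav in each dish by library set, with axes from 0. The library sets do not overlap for Itgam (at most 118 in library set 1 and at least 130 in library set 2), while they overlap for the other 4 genes.

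Genes that work with integrins and laminins were read from the same fits. Of 15 tested basement membrane partners, 0 passed with library sets, as did 0% of all genes. With pairs 1 of the 15 passed, against 1.09% of all genes. At an unadjusted p under 0.05 the paired model gave 5 of the 15, against 17.6% of all genes. The gene called with pairs was Tinagl1, which encodes a matrix protein of basement membranes. It had 1774 ± 380 normalized counts (SD, n = 6) in the control and 2081 ± 444 in the ablation group. Every pair was higher after ablation, by 0.23 on average on the log2 scale (limma adjusted p-values of 0.735 and 0.0245). Col4a3, a collagen IV chain, was lower in every pair (log2 fold change -0.74, adjusted p-values of 0.557 and 0.0710), and Ntn4, a laminin-related netrin, was higher in 6 of 6 (0.16, adjusted p-values of 0.717 and 0.123). The median log2 fold change of this list was -0.04.

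Of 14 integrin activators and adaptors, 0 passed in either model, where 0% (library sets) and 1.09% (pairs) of all genes passed. Of the 14 log2 fold changes, 10 were below 0, with a median of -0.04. Over all genes tested, 7103 of 13792 were below 0, with a median of -0.0036. Talin 1 (Tln1), which links integrin tails to actin, had a log2 fold change of -0.11 and integrin-linked kinase (Ilk) one of -0.09. Both were lower in 6 of 6 pairs, with paired adjusted p-values of 0.194 and 0.238. Of 4 laminin receptors that are not integrins (Dag1, Bcam, Sdc1 and Sdc4), 0 passed, with log2 fold changes from -0.08 to 0.09. Of 6 tested other integrin ligands, 0 passed. Thbs1, which encodes the matrix protein thrombospondin 1, was higher in every pair (log2 fold change 0.42, limma paired adjusted p = 0.213), and the tenascin gene Tnc and the nephronectin gene Npnt were each lower in 5 of 6 pairs.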

How the data were processed

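Stranded libraries of poly(A) RNA from 12 dishes were sequenced from both ends. The authors ran nf-core/rnaseq on GRCm38.p6 with GENCODE genes and normalized with DESeq2. The read counter and its strand setting are not given in the sources used here. The deposited signal values are DESeq2-normalized counts per gene, with gene length as the union of exons. The deposited table also holds the authors' own log2 fold changes, score columns (standard errors and Wald statistics) and p-values, which were not used. The 12 library columns were matched by their labels. Controls 4, 6 and 7 carry the word ablation in their titles but control as their treatment, which was followed.

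Genes that reached 10 normalized counts in 6 or more libraries were tested with limma 3.58.1 (R 4.3.3) on log2(normalized count + 1), so fold changes of low genes are understated. eBayes used a trend and robust estimation, with Benjamini-Hochberg adjustment over 13792 genes. The methods name a batch without defining it, and it was taken as the library set. Same-numbered dishes deviated together from their group means, with r from 0.205 to 0.618 across genes, so the numbers were taken as pairs (replicate block). In pair 4, with r = 0.205, a control of another number correlated more with ablation 4 than control 4 did. Partner ratios were compared by two-sided exact sign-flip tests (Python 3.11.15). edgeR 4.0.16 was run on whole reads recovered for 9 libraries, 23631200 to 29775700 per library, with 100% of low values whole within 0.1 of a step. For ablation 3, ablation 4 and control 4 the step was too near 1. Tests were tried on simulated data. The members and lists were chosen with earlier results of these data known. The rule for naming took all 43 genes, of which 1 is not reported here with its ratio, nor is 1 leukocyte marker. Both stay in the counts and adjustments. Those given dish by dish are the hemidesmosome genes, Lama3, Lamb3 and the 5 with the lowest unadjusted p, and Col7a1, Lama1, Itga3, Itgam and genes of the partner lists were singled out after their values were seen. Counting error only is covered by the limit for a count of 0.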

Additional observations from a re-analysis of the deposited data

Results flagged for a closer look

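The ratio of Col17a1 to Itgb4 in ablation 1 was 1.55, apart from the other 5 ablation dishes, which lay between 0.999 and 1.18. Its gap to the next dish was 0.666 of the range of the group, above Dixon's limit for 6 values. It was the only one of 68 groups of 6 dishes so marked, where chance marks about 1 in 20. In the control of the same pair the ratio was 1.38, also the highest of its group.

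The change of Col7a1 after ablation differed by -0.60 on the log2 scale between library set 2 and library set 1, since all 3 pairs of library set 1 lay above their controls and all 3 of library set 2 below. The change of Lama1 differed by -0.39 in the same way. Tested with limma across all genes, neither passed, with adjusted p-values of 0.252 and 0.413. Library set and passage moved together except for pairs 4 and 5, which had the same passage, and the part of passage was not tested.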

How the results depend on the processing

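No alternative to the library set model called a gene of the 29, and the replicate block gave 0 as well. Over all genes the block called 150 against 0, Trp63 and Tinagl1 among them. The paired model called 1 gene with no count minimum (Itga6, with 1.25% of all genes called) and 1 in library set 2 alone (Col7a1, with 0.79%), against 0. The replicate block, no library set term, no count minimum and eBayes without trend and robust estimation leave each log2 fold change unchanged. No sign could turn under these alternatives. For genes on one side in all 6 pairs, none could turn either when a pair or a library set was left out. Of the log2 fold changes, 16 of 29 kept their sign under all 17 alternatives and 13 did not. Among the 16 were those of Itga6, Itgb4, Itgb5, Itgb8, Itga1, Col17a1, Plec and Lama5. The sizes of these 8 moved more, over all 17 from 0.10 to 0.17 for Itga6, -0.15 to -0.075 for Itgb4, -0.17 to -0.071 for Itgb5, 0.17 to 0.55 for Itgb8, -0.74 to -0.33 for Itga1, -0.16 to -0.021 for Col17a1, 0.057 to 0.17 for Plec and 0.014 to 0.22 for Lama5. Itgb4 was at -0.075 without pair 4, Lama5 at 0.075 without pair 3, and Plec at 0.17 without pair 4 and at 0.060 without pair 6. Equal totals and quantile normalization kept the 2 genes higher and 3 lower in all 6 pairs as counts, alternatives chosen after seeing the data.

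In library set 1 alone the signs turned for Lamb2 (0.080), Itgb7 (0.065) and Col7a1 (0.29). In library set 2 alone they turned for Lama1 (-0.096), Itgam (0.020), Cd151 (-0.016), Itga9 (-0.053), Lamb3 (-0.022), Lama3 (-0.047) and Itga5 (-0.038). With edgeR on recovered reads they turned for Itgam (0.052), Itgb7 (0.13), Itga3 (-0.048), Itgb1 (-0.030) and Col7a1 (0.077). Leaving out a pair gave -0.20 to 0.018 for Itgb2, -0.0025 to 0.046 for Lamb3, -0.035 to 0.10 for Lama3, -0.065 to 0.063 for Itga5, -0.017 to 0.027 for Itgb1 and -0.13 to 0.076 for Col7a1. The ratio of Lama3 to Lamb3 was -0.025 in library set 2 alone and -0.032 to 0.053 without a pair. That of Col17a1 to Itgb4 was -0.015 in library set 2 alone and -0.021 to 0.036 without a pair, turning without pair 1. The cause was not tested. With an exact permutation over 12 libraries instead of pairs, the ratio of Itga6 to Itgb4 had p = 0.00866 and an adjusted p of 0.0519. The 3 pairs of a library set cannot give a sign-flip p under 0.25, and 5 pairs give none under 0.0625.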
